A study of Homo sapiens with 6 samples.

Results

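The 10 genes described here are markers and regulators linked to an epithelial-to-mesenchymal transition. They were taken by name from the deposited tables: CDH1, EPCAM, CDH2, VIM, FN1, ZEB1, ZEB2, SNAI1, SNAI2 and TWIST1. Each had 1 row, so 10 of the 58735 listed genes were found, and 8 of the 10 passed the filter on low counts that left 14458 genes for testing. A549, the cell line used throughout, was derived from a human lung adenocarcinoma. There were 3 libraries titled OE_GPX3, whose genotype label reads OE (overexpression), and 3 libraries titled Vector, whose genotype label reads WT. GPX3 encodes a secreted glutathione peroxidase. The labels do not say how GPX3 was introduced, whether a clone or a pool was used, or whether replicates were separate cultures, so the spread measured here may be technical.

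In an epithelial-to-mesenchymal transition, cells lose the junctions that hold an epithelial sheet together and gain a motile, matrix-producing form. The textbook sign is a cadherin switch, in which E-cadherin (CDH1) gives way to N-cadherin (CDH2). The switch is driven by repressors of the SNAI, ZEB and TWIST families, which bind E-box sequences in the promoters of epithelial genes. Lung carcinoma lines often hold both kinds of marker, a state called hybrid or partial.

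GPX3 was counted 23372, 17470 and 20984 times in the OE_GPX3 libraries, against 638, 658 and 648 times in the Vector libraries, a higher count in each library labelled OE_GPX3. Total counts per library lay between 15831693 and 18751815. The epithelial character of the line was clear from the keratins: KRT8 averaged 2480 ± 388 FPKM in OE_GPX3 and 1915 ± 118 FPKM in Vector (SD, n = 3 each). FPKM is the count divided by gene length and by a library constant, as the authors scaled it. The 5 epithelial markers summed to between 4894 and 6680 FPKM in OE_GPX3, against 4272 to 4754 FPKM in Vector. Most of each sum came from KRT8 and KRT18, the latter at 3072 ± 499 FPKM in OE_GPX3 and 2429 ± 128 FPKM in Vector (SD, n = 3 each). These 2 genes overlap on opposite strands, so their values are uncertain if reads were not counted by strand. CDH1 and EPCAM, also in the sum, overlapped between groups. KRT8, KRT18 and KRT19 were higher in OE_GPX3 without overlap, as were 8.62% of all tested genes after scaling for library size. None of these keratins passed at an adjusted p under 0.05. The edgeR adjusted p was 0.159 for KRT8, 0.201 for KRT18 and 0.0541 for KRT19. Of 7 fibroblast markers COL1A1 alone could be tested, and the list summed to 0.373 to 0.736 FPKM in OE_GPX3 and 0.518 to 0.605 FPKM in Vector. The 4 endothelial markers summed to at most 0.109 FPKM in OE_GPX3 and 0.115 FPKM in Vector, with KDR at 0 in each library. Of 4 blood markers CD14 alone was above the filter, at 8.70 ± 0.298 FPKM in OE_GPX3 and 7.41 ± 1.21 FPKM in Vector (SD, n = 3 each). In bulk RNA, a change in the number of cells with a transcript and a change in the amount per cell cannot be told apart.

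The starts of VIM and ZEB1 are shown because each lies inside the span of an antisense gene that was also counted, VIM-AS1 and ZEB1-AS1, and because VIM was the member whose groups stood apart while ZEB1 had the largest estimated difference. The windows run from 250 bases before to 50 bases after a transcript start, 5′ to 3′ on the gene's own strand, from RefSeq (GRCh38.p14). They lie at chr10:17227991-17228290 (plus strand) for VIM and chr10:31318167-31318466 (plus strand) for ZEB1. For ZEB1 the start nearest the deposited gene start was taken among 7. It lies upstream of that gene start, so the whole ZEB1 window does too, and its last 20 bases were found in no GENCODE 29 transcript of ZEB1. Capitals mark the E-box letters CACCTG or CAGGTG, each the reverse complement of the other, which SNAI and ZEB proteins are known to bind.
VIM: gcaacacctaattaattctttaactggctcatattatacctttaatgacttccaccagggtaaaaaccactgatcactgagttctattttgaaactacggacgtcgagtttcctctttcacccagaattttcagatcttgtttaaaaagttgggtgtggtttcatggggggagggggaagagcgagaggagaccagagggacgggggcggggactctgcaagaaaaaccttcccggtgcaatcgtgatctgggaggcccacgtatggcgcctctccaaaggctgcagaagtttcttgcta
ZEB1: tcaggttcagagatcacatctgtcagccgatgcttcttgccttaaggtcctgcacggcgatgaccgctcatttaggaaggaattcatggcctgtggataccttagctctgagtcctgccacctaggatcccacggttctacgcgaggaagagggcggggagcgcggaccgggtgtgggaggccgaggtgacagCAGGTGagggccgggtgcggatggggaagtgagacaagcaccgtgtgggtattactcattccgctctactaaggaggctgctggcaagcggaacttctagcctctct
The ZEB1 window held 1 such match, 57 bases before the RefSeq start, and the VIM window held 0. Among the 5 members with a promoter entry of that length, the windows of CDH2, FN1 and ZEB2 likewise held 0. The epithelial members CDH1 and EPCAM had no such entry, so their promoters were not searched. Of 35116 RefSeq promoter windows of 300 bases, 20.6% held CACCTG or CAGGTG and 68.7% held the looser CANNTG, so the match in ZEB1 is a description of letters and not of binding.

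Ordered by level per length, the 10 transcripts fell into 3 bands that were alike in both groups, as the plot of levels in each library shows. FN1, VIM, CDH1 and EPCAM formed the upper band, between 19.0 and 110 FPKM in all libraries. CDH2, SNAI1 and TWIST1 lay between 1.05 and 3.17 FPKM, and ZEB1, SNAI2 and ZEB2 below 0.22 FPKM. Transcripts of an epithelial cadherin were thus abundant in the same libraries as those of vimentin and fibronectin. In OE_GPX3 the neighbours CDH1 and EPCAM, CDH2 and SNAI1, and ZEB1 and SNAI2 overlapped between libraries. In Vector SNAI1 and TWIST1 alone overlapped. By mean FPKM over the 6 libraries, FN1 stood above 96.5% of tested genes, VIM above 91.9%, CDH1 above 88.4%, EPCAM above 85.8%, CDH2 above 44.2% and ZEB1 above 3.19%.

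**Figure D1:**
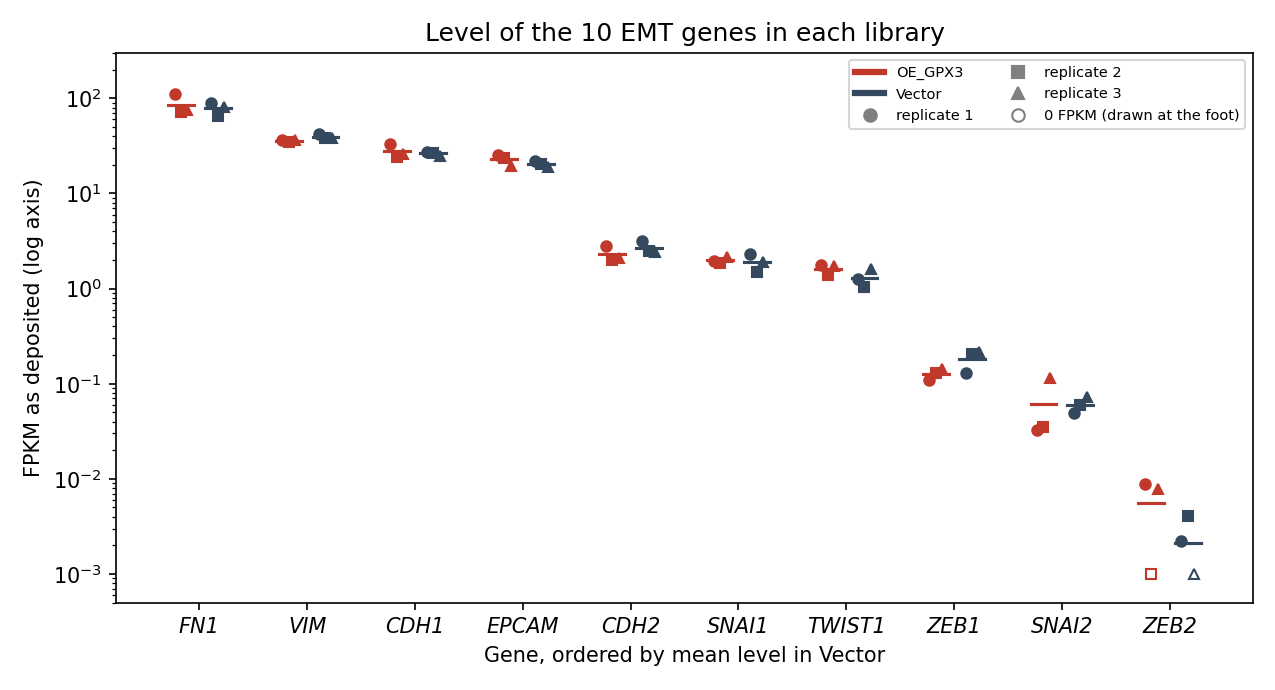
Deposited FPKM (log axis) of the 10 genes in each library, with OE_GPX3 left of Vector, a symbol for each replicate number and a bar at the group mean; open symbols at the foot are 0 FPKM. The genes span from FN1, with means of 85.6 FPKM in OE_GPX3 and 79.0 FPKM in Vector, down to ZEB2 below 0.01 FPKM.

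None of the 8 tested members differed between OE_GPX3 and Vector at an adjusted p under 0.05 in edgeR's quasi-likelihood test, adjusted by Benjamini-Hochberg over all 14458 genes. Adjusted p ranged from 0.456 for VIM to 0.941 for SNAI1, and 0 of the 8 had an unadjusted p under 0.05. Over all tested genes 38 passed (0.263%), 14 higher (0.0968%) and 24 lower (0.166%), and 14.6% had an unadjusted p under 0.05. The balance of directions depended on the fit: 13 passed as higher and 55 as lower with no scaling beyond total counts, but 74 as higher and 41 as lower with DESeq2. The total was 657 when OE_GPX3 replicate 1 was omitted, of which 399 were higher and 258 lower, and 1 when OE_GPX3 replicate 2 was omitted. Of the 8 members 5 had a log2 fold change above 0 and 3 below 0, with a median of 0.05, against a median of -0.02 over all tested genes. The groups did not overlap in CPM, counts relative to library size after scaling, for 1 member, VIM, which was lower. Of all tested genes 18.5% showed no overlap, 8.62% higher and 9.9% lower. The plot of fold changes gives the 8 estimates with their 95% confidence intervals.

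**Figure D2:**
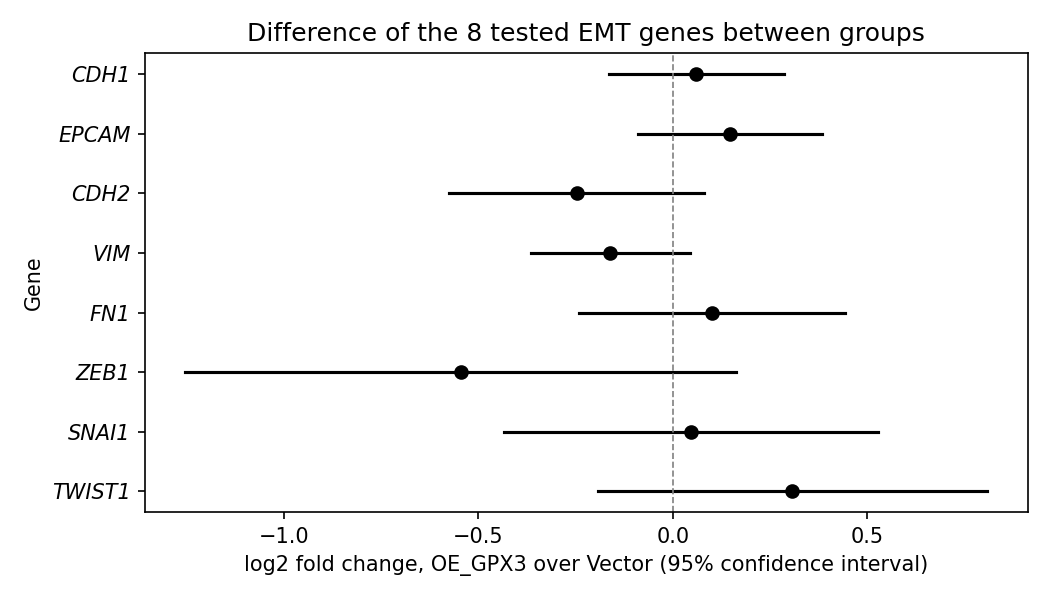
Log2 fold change of OE_GPX3 over Vector for the 8 tested genes, as points with 95% confidence intervals from edgeR, ordered by role; the dashed line marks 0. Each of the 8 intervals contains 0, and the widest belongs to ZEB1, from -1.25 to 0.16.

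Among the epithelial members, CDH1 encodes E-cadherin, the calcium-dependent adhesion protein of adherens junctions (ENSG00000039068, chromosome 16, 68737225 to 68835548, plus strand, hg38). CDH1 stood at 33.2, 24.2 and 26.0 FPKM in the OE_GPX3 libraries, against 27.4, 26.8 and 25.0 FPKM in the Vector libraries. The groups overlapped, and the highest value belonged to OE_GPX3 replicate 1. Its log2 fold change was 0.06 (SE 0.11, interval -0.17 to 0.28, edgeR adjusted p = 0.828), and without OE_GPX3 replicate 1 it turned to -0.09. On a linear scale that interval ran from 0.892 to 1.22 times the Vector level.

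EPCAM encodes a homophilic adhesion glycoprotein of simple epithelia and carcinomas (ENSG00000119888, chromosome 2, 47345158 to 47387601, plus strand). EPCAM was measured at 25.5, 23.8 and 19.2 FPKM in OE_GPX3, against 21.7, 20.6 and 19.0 FPKM in Vector. Replicates 1 and 2 of OE_GPX3 exceeded each Vector library, while replicate 3 lay among them. EPCAM had a log2 fold change of 0.15 (interval -0.09 to 0.38, edgeR adjusted p = 0.568). Leaving out 1 library gave values from 0.06, without OE_GPX3 replicate 1, to 0.27, without OE_GPX3 replicate 3.

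CDH2 encodes N-cadherin, the cadherin of neural and mesenchymal cells (ENSG00000170558, chromosome 18, 27950966 to 28177446, minus strand). CDH2 was found at 2.81, 1.98 and 2.09 FPKM in the OE_GPX3 libraries, against 3.17, 2.49 and 2.44 FPKM in the Vector libraries. The 2 lowest values were both from OE_GPX3, but its replicate 1 lay above replicates 2 and 3 of Vector. The log2 fold change of CDH2 was -0.25 (SE 0.16, interval -0.58 to 0.08, edgeR adjusted p = 0.477). It was -0.43 without OE_GPX3 replicate 1 (edgeR adjusted p = 0.132), -0.14 without OE_GPX3 replicate 2 and -0.11 without Vector replicate 1.

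The ratio of CDH1 to CDH2 within a library does not depend on the scaling between libraries. The ratio of FPKM was 11.8, 12.2 and 12.4 in the OE_GPX3 libraries, against 8.64, 10.8 and 10.2 in the Vector libraries. Each OE_GPX3 library had a higher ratio than each Vector library, and Vector replicate 1 was the lowest. Taken singly, CDH1 and CDH2 each overlapped between groups. Of single tested genes 18.5% showed no overlap in CPM, and no such share was counted for ratios of gene pairs. On the log2 scale the ratio averaged 3.60 ± 0.04 in OE_GPX3 and 3.30 ± 0.17 in Vector (SD, n = 3 each), a difference of 0.30. Leaving out each library in turn gave differences from 0.21, without Vector replicate 1, to 0.37, without Vector replicate 2. No p is given for this ratio, since its genes were chosen with earlier results of these data known, and 3 against 3 libraries could not go below an exact two-sided permutation p of 0.1. The plot of the cadherin ratio shows the 6 values.

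**Figure D3:**
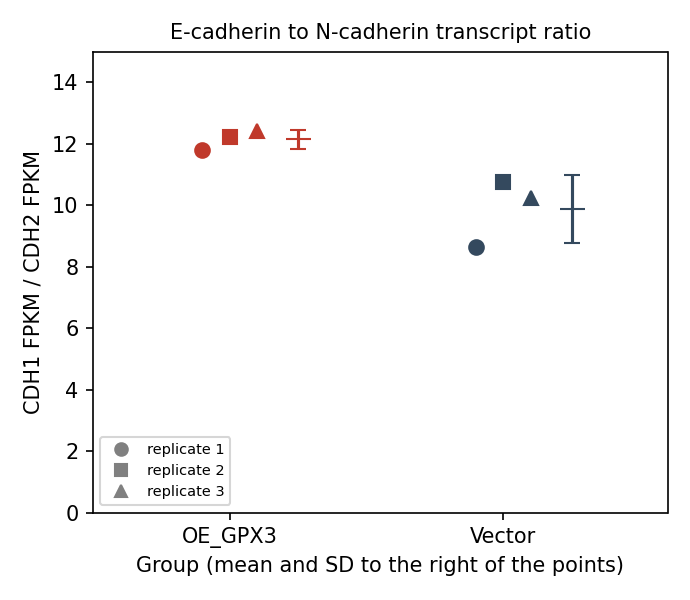
Ratio of CDH1 FPKM to CDH2 FPKM in each library (points, a symbol for each replicate number), with the group mean and SD beside them, OE_GPX3 left of Vector. The 3 OE_GPX3 libraries lie between 11.8 and 12.4, above the 3 Vector libraries between 8.64 and 10.8. The difference was not tested, and how often ratios of other gene pairs separate the groups was not counted.

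VIM encodes vimentin, the intermediate filament protein of mesenchymal cells (ENSG00000026025, chromosome 10, 17228259 to 17237593, plus strand). VIM stood at 36.1, 34.8 and 36.5 FPKM in OE_GPX3, against 41.9, 38.3 and 38.6 FPKM in Vector. All 3 OE_GPX3 libraries were below all 3 Vector libraries, and the replicates lay close together, with coefficients of variation of the CPM of 2.65% in OE_GPX3 and 5.58% in Vector. Its log2 fold change was small, -0.16 (SE 0.10, interval -0.36 to 0.04, edgeR adjusted p = 0.456). Counts of VIM-AS1, on the other strand, amounted to 0.320% of those of VIM, and the pseudogene VIM2P had 0 counts.

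FN1 encodes fibronectin, a secreted matrix glycoprotein bound by integrins, and was the most abundant member per length (ENSG00000115414, chromosome 2, 215360440 to 215436172, minus strand). FN1 reached 110, 71.8 and 74.7 FPKM in the OE_GPX3 libraries, against 90.1, 65.7 and 81.3 FPKM in the Vector libraries. Replicate 1 was the highest of its group in both groups, and the groups overlapped over most of their range. The log2 fold change of 0.10 (interval -0.24 to 0.44, edgeR adjusted p = 0.798) turned to -0.13 without OE_GPX3 replicate 1 and to -0.02 without Vector replicate 2.

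Of the transcription factors, ZEB1 is a zinc finger and homeodomain repressor of CDH1 (ENSG00000148516, chromosome 10, 31318495 to 31529814, plus strand). ZEB1 was counted 17, 19 and 19 times in OE_GPX3, against 20, 35 and 31 times in Vector, or 0.109, 0.130 and 0.143 FPKM in OE_GPX3 against 0.128, 0.206 and 0.218 FPKM in Vector. After scaling, Vector replicate 1 lay among the OE_GPX3 libraries and the other 2 Vector libraries lay above them. Its log2 fold change of -0.55 (SE 0.35, interval -1.25 to 0.16, edgeR adjusted p = 0.465) did not pass. ZEB1-AS1, which spans the start of ZEB1 on the other strand, held 21, 20 and 8 counts in OE_GPX3 and 19, 29 and 17 counts in Vector, a total of 80.9% of the ZEB1 counts. No source used here says whether reads were counted by strand, so ZEB1 is uncertain. The log2 fold change of ZEB1-AS1 was -0.32 (edgeR adjusted p = 0.726).

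ZEB2, the paralogue of ZEB1, failed the filter, with 4, 0 and 3 counts in OE_GPX3 and 1, 2 and 0 counts in Vector (ENSG00000169554, chromosome 2, 144364364 to 144524583, minus strand). A count of 0 allows up to 3 counts, or 0.177 CPM in OE_GPX3 replicate 2 and 0.183 CPM in Vector replicate 3. The summed counts of 7 in OE_GPX3 and 3 in Vector gave a ratio of OE_GPX3 to Vector of 2.49 with an exact 95% interval of 0.568 to 14.9, which covers counting error only. At this depth a difference in ZEB2 was not detectable.

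SNAI1 encodes Snail, a short-lived repressor of CDH1 (ENSG00000124216, chromosome 20, 49982999 to 49988886, plus strand). SNAI1 stood at 1.95, 1.86 and 2.16 FPKM in the OE_GPX3 libraries, against 2.30, 1.51 and 1.91 FPKM in the Vector libraries. The Vector libraries enclosed the whole OE_GPX3 range. The log2 fold change of 0.05 (interval -0.43 to 0.53, edgeR adjusted p = 0.941) changed sign between settings. It was -0.10 without Vector replicate 2, and also below 0 without OE_GPX3 replicate 3 and after a correction for GC content that was added once the data had been seen. The pseudogene SNAI1P1 had 0 counts.

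SNAI2, which encodes the related repressor Slug, also failed the filter (ENSG00000019549, chromosome 8, 48917604 to 48921740, minus strand). SNAI2 was counted 2, 2 and 6 times in OE_GPX3, against 3, 4 and 4 times in Vector. The sums of 10 in OE_GPX3 and 11 in Vector gave a ratio of 0.969 with an exact 95% counting interval of 0.369 to 2.51, so a difference within these bounds was not detectable at this depth.

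TWIST1 encodes a basic helix-loop-helix factor of mesoderm that acts upstream of CDH2 and SNAI2 in other settings (ENSG00000122691, chromosome 7, 19020991 to 19117672, minus strand). TWIST1 was measured at 1.75, 1.40 and 1.73 FPKM in OE_GPX3, against 1.26, 1.05 and 1.61 FPKM in Vector. The lowest values were from Vector, but Vector replicate 3 lay above OE_GPX3 replicate 2. The log2 fold change of 0.31 (interval -0.19 to 0.81) did not pass (edgeR adjusted p = 0.570). Without Vector replicate 2 it was 0.17, and without Vector replicate 3 it was 0.49.

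By position, 20 other listed genes overlap 7 of the 10 members, and 12 of them had 0 counts. Of the other 8, VIM-AS1 and ZEB1-AS1 passed the filter and 3 had 1 count. The pseudogene FTLP14, on the strand of CDH1, held 45 counts (0.257% of CDH1), the pseudogene SPTLC1P1 held 9 counts (6.38% of ZEB1), and AC006249.1 inside CDH2 held 6 counts, all in OE_GPX3 replicate 1.

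The plot of deviations from each gene's mean shows the spread between libraries within the members. How often each library was highest or lowest over all tested genes was not counted. OE_GPX3 replicate 1 was the highest of the 6 libraries for 4 of the 8 genes, namely CDH1, EPCAM, FN1 and TWIST1, and the lowest for ZEB1. Vector replicate 1 was the highest for CDH2, VIM and SNAI1. On the log2 scale OE_GPX3 replicate 1 exceeded the mean of 6 libraries by 0.30 for CDH1, 0.25 for EPCAM, 0.45 for FN1 and 0.27 for TWIST1. For CDH2 its deviation was 0.19, below the 0.38 of Vector replicate 1. It was 0.01 for SNAI1, -0.06 for VIM and -0.42 for ZEB1, so the mesenchymal members did not move together in that library. Over all genes tested that library deviated from its group's mean by 0.24 (root mean square, log2), against 0.20 to 0.23 for the other 5 libraries. On the second principal component of all tested genes, an axis holding 23.3% of their variance, that library lay at 30.0. The other 5 libraries lay between -15.0 and 6.39 on it. Its part in these results was not tested beyond the values given without it.

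**Figure D4:**
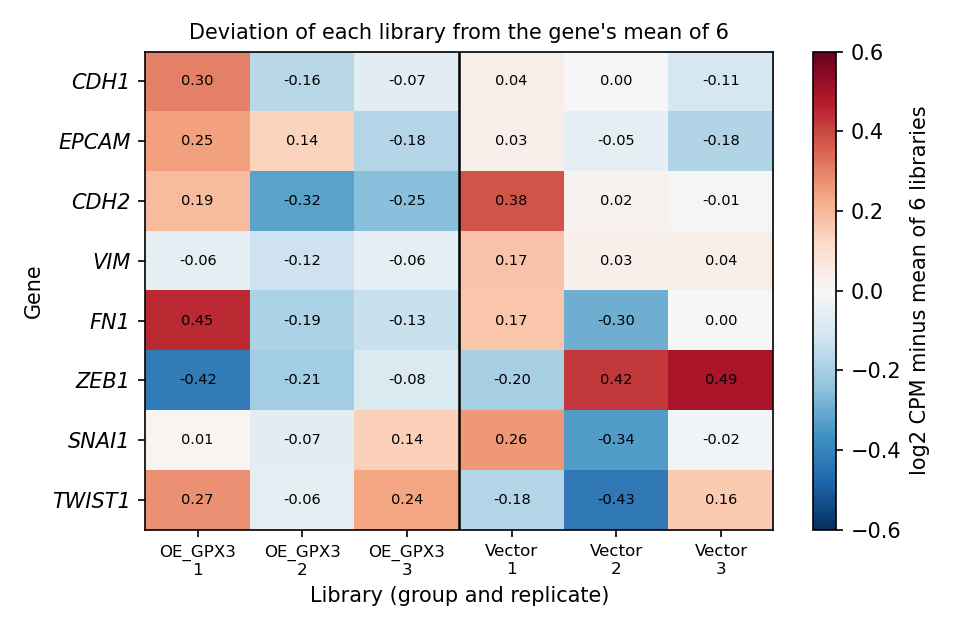
Log2 CPM of the 8 tested genes in each library minus the gene's mean over 6 libraries (colour and printed value), with OE_GPX3 libraries left of the line and Vector libraries right of it. OE_GPX3 replicate 1 is high for FN1 (0.45), CDH1 (0.30), TWIST1 (0.27) and EPCAM (0.25), and low for ZEB1 (-0.42).

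The genes whose log2 CPM across the 6 libraries was closest to that of CDH1, each centred on its own mean, were LAMB1, a laminin chain, FRAS1, a basement membrane protein, and PTGFRN, an immunoglobulin superfamily membrane protein. They differed from CDH1 by a root mean square of 0.02, 0.04 and 0.04 on the log2 scale, where the median of 9980 protein-coding genes of at least 5 CPM was 0.21. Closest to CDH2 were the transcription factor FOXO1, the guanine nucleotide exchange factor RAPGEF2 and the metalloproteinase PAPPA, at 0.05 each, where the median was 0.27. All these genes were chosen as the closest over 6 libraries, so lying far below the median was fixed by the choice. How close other genes lie to their own nearest genes was not computed.

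Around these 10 genes, 7 lists of partners and regulators with 120 genes in all were examined, of which 86 could be tested. In edgeR 0 of the 86 passed over all genes (background 0.263%), and 15 (17.4%) had an unadjusted p under 0.05, against 14.6% of all tested genes. The plot of the companion lists shows their fold changes. Without OE_GPX3 replicate 1 6 of 88 listed genes passed (6.82%), where 4.47% of all genes did. Without Vector replicate 1 2 of 88 passed (2.27%), where 0.788% of all genes did. With no filter on low counts 1 of 112 passed (0.893%, against 0.481% of all genes), and with DESeq2 2 of the 64 that had an adjusted p (3.12%, against 1.33% of all genes).

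All 10 adherens junction partners could be tested, and the catenins that tie cadherins to actin lay near 0, with log2 fold changes of -0.07 for CTNNA1 and 0.13 for plakoglobin, JUP. Of the 4 nectins, adhesion proteins that seed such junctions, NECTIN2 and NECTIN1 had the smallest p of the list, while NECTIN3 and NECTIN4 had log2 fold changes of -0.05 and -0.21 (edgeR adjusted p of 0.926 and 0.833). NECTIN2 averaged 209 ± 9.11 CPM in OE_GPX3 and 166 ± 19.4 CPM in Vector (SD, n = 3 each) and had a log2 fold change of 0.33 (edgeR adjusted p = 0.158). NECTIN1 had 0.39 (edgeR adjusted p = 0.166). Neither NECTIN2 nor NECTIN1 overlapped between groups in CPM, which held for 2 of the 10 partners and 18.5% of all tested genes. The list's median was -0.02, as for all tested genes.

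Of 19 other cadherins 5 could be tested and 0 passed. CDH3, P-cadherin, had a log2 fold change of -0.82 at 0.933 ± 0.216 CPM in OE_GPX3 and 1.69 ± 1.08 CPM in Vector (SD, n = 3 each), and its groups overlapped (edgeR adjusted p = 0.348). CDH4, CDH17 and CDH24 had log2 fold changes of 0.40, -0.10 and 0.19. Per length CDH17, at 5.80 ± 0.765 FPKM in OE_GPX3 and 6.16 ± 0.686 FPKM in Vector (SD, n = 3 each), stood above CDH2 in both groups.

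Of 19 genes of the epithelial programme 12 could be tested and 0 passed, with a median of -0.03. KLF4, a zinc finger factor that maintains epithelia and is also an immediate early gene, came closest at 20.1 ± 3.56 CPM in OE_GPX3 and 30.2 ± 6.17 CPM in Vector (SD, n = 3 each), and its log2 fold change was -0.59 (edgeR adjusted p = 0.0607). SPINT2, an inhibitor of epithelial surface proteases, had 0.31 (edgeR adjusted p = 0.166), the splicing regulator ESRP1 -0.34 (edgeR adjusted p = 0.402) and the grainyhead factor GRHL1 -0.38 (edgeR adjusted p = 0.526).

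Of 18 other transcription factors linked to the transition 15 could be tested and 0 passed, with a median of -0.04. ETS1, TCF4 (E2-2, a partner of TWIST proteins), ID1 (an inhibitor of such factors) and TWIST2 had log2 fold changes of -0.48, -0.66, 0.20 and 0.20, with edgeR adjusted p from 0.159 to 0.471. Their groups did not overlap in CPM, which held for 4 of the 15 tested genes and 18.5% of all tested genes. These genes were named for their small p, so the separation adds no evidence of its own. TWIST2, the paralogue of TWIST1, was the more abundant of the pair per length, at 12.5 ± 0.733 FPKM in OE_GPX3 and 10.7 ± 1.22 FPKM in Vector (SD, n = 3 each).

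All 18 genes of TGF-beta signalling, the best known inducer of the transition, could be tested and 0 passed, with 6 above 0, 12 below 0 and a median of -0.08. The ligand TGFB1 averaged 214 ± 16.6 CPM in OE_GPX3 and 167 ± 17.0 CPM in Vector (SD, n = 3 each), with a log2 fold change of 0.36 and without overlap (edgeR adjusted p = 0.125). Groups did not overlap for 4 of the 18 genes, against 18.5% of all tested genes. The receptor TGFBR2 had -0.24, the signal transducer SMAD2 -0.21 and the ubiquitin ligase SMURF2 -0.34 (edgeR adjusted p from 0.312 to 0.353).

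All 17 genes for corepressors and turnover of SNAI and ZEB proteins could be tested and 0 passed, with 11 below 0 and a median of -0.19. FBXL5 and FBXO45, F-box subunits of ubiquitin ligases, had log2 fold changes of -0.35 and -0.36, and the Polycomb genes SUZ12 and EZH2 had -0.36 and -0.31 (edgeR adjusted p from 0.231 to 0.306). Of 19 mesenchymal markers and fibronectin receptors 9 could be tested and 0 passed, with a median of 0.20. ACTA2, smooth muscle actin, averaged 9.46 ± 0.861 CPM in OE_GPX3 and 13.5 ± 0.391 CPM in Vector (SD, n = 3 each), and its log2 fold change was -0.51 (edgeR adjusted p = 0.131). The matrix protein tenascin C, TNC, had 0.43, the calcium-binding protein S100A4 0.20 and the fibronectin receptor subunit ITGB1 -0.20 (edgeR adjusted p from 0.249 to 0.426). TGFB1, SMURF2, FBXL5, FBXO45 and ACTA2 overlap counted genes on the other strand that held between 18.6% and 278% of their own counts, so their values are uncertain.

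**Figure D5:**
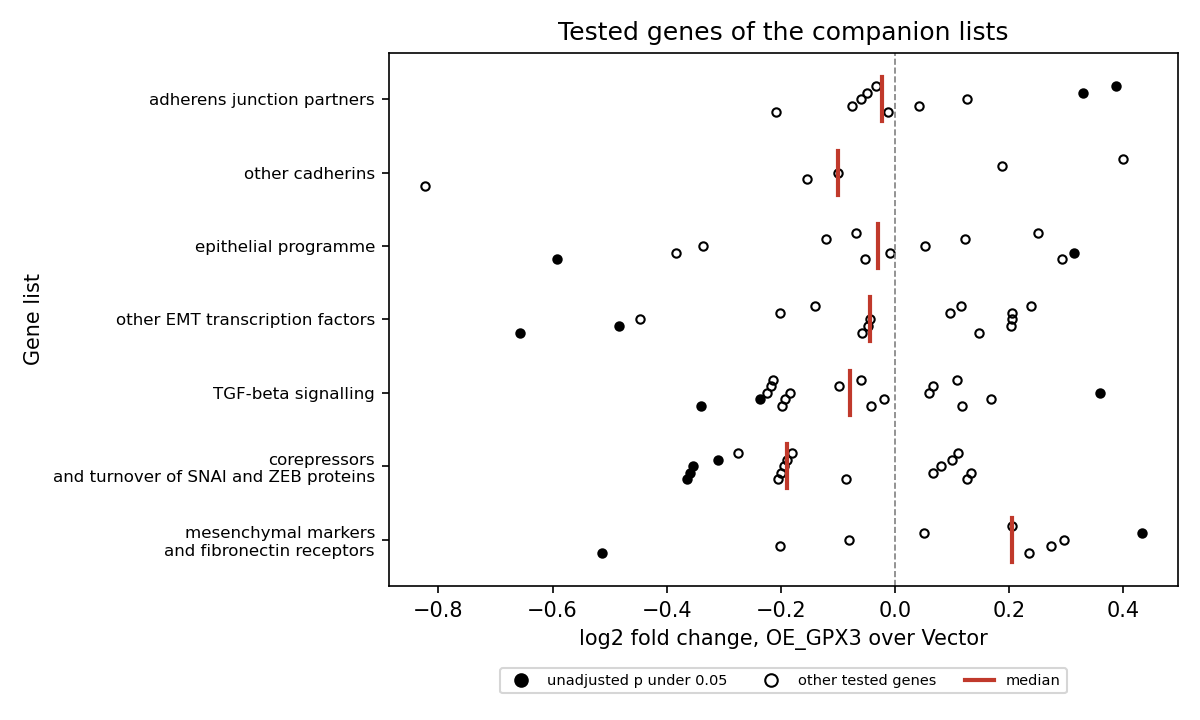
Log2 fold change of OE_GPX3 over Vector for each tested gene of the 7 companion lists (points, spread vertically for visibility), filled where the unadjusted edgeR p was under 0.05, with the list's median as a bar. Medians run from -0.19 for the corepressor and turnover genes to 0.20 for the mesenchymal markers, and 0 of the 86 genes passed after adjustment over all genes.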

How the data were processed

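The 6 RNA libraries were all from A549 cells and were grouped by title into 3 OE_GPX3 and 3 Vector libraries. The authors deposited whole-number counts per gene; the submitters' processing notes name hg38, and the sources used here name no aligner, counter or strand setting. Per the labels' protocols the libraries were enriched for small RNAs, but protein-coding genes held 97.2% to 97.6% of the deposited counts and small RNA genes at most 0.0105%, so how the libraries were made is uncertain. All 58735 gene positions equal those of GENCODE release 29. The deposited FPKM equal count per gene length over 1 constant per library, which lay from -4.52% to 4.90% off the total count, so the authors scaled between libraries. From the counts, edgeR 4.0.16 (R 4.3.3) was run with filterByExpr (minimum count 10, minimum total 15), TMM scaling and the robust quasi-likelihood test, two-sided, with Benjamini-Hochberg adjustment over 14458 genes at 0.05. CPM were scaled by TMM, and log CPM used a prior count of 2. Alternatives used DESeq2 1.42.0 and limma 3.58.1 on log2(FPKM + 1) or log2(FPKM + 0.1), a scale that understates changes of low genes. The edgeR step was checked on simulated data. No 2 libraries held identical counts.

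The members and lists were chosen with earlier results of these data known. Named genes are the members, listed genes with an adjusted p under 0.05 or otherwise up to 4 per list with the smallest p, genes whose span overlaps a member, and the 3 genes most like CDH1 and CDH2. Intervals at 95% for summed counts are exact and cover counting error only.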

Additional observations from a re-analysis of the deposited data

How the results depend on the processing

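Of 150 values of the 8 tested members over 19 alternatives, 142 kept their direction and 8 changed sign, in CDH1, FN1 and SNAI1. None of the 144 with an adjusted p passed, and the smallest was 0.132. The other 6, of ZEB1, SNAI1 and TWIST1 in 2 DESeq2 fits, were given none. SNAI1 was -0.0126 with total counts alone, which moved the median of all genes by -0.0601, -0.0675 with a GC correction and -0.0575 with that correction and the replicate block. Leaving out 1 library gave log2 fold changes of -0.0930 to 0.160 for CDH1, -0.13 to 0.22 for FN1, -0.10 to 0.21 for SNAI1, -0.43 to -0.11 for CDH2, 0.06 to 0.27 for EPCAM and 0.17 to 0.49 for TWIST1. The GC correction, chosen after seeing the data, gave -0.15 for CDH2, -0.09 for VIM, -0.37 for ZEB1 and 0.23 for FN1.

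The count of genes called depended far more on the processing. Against 38, it was 68 with total counts alone, 129 with no filter, 115 with DESeq2 on all genes with a count, 116 with DESeq2 on the genes kept for edgeR (68 higher and 48 lower, a fit added after seeing the data), 231 with the replicate block (141 higher and 90 lower), 4 with either pseudocount on FPKM, 1 on FPKM with no filter and 4 after the GC correction. Leaving out 1 library gave 1 (without OE_GPX3 replicate 2) to 657 (without OE_GPX3 replicate 1), with 12 without OE_GPX3 replicate 3, 116 without Vector replicate 1 (28 higher and 88 lower) and 4 without Vector replicate 2. Listed companion genes called, 0 in the main fit of all libraries, numbered 1 with no filter (KLF4) and 2 with DESeq2 (SPINT2 and TGFB1). DESeq2 on the genes kept for edgeR called 1 of the 68 with an adjusted p (KLF4, 1.47% against 1.2% of all genes). The replicate block called 2 (TGFB1 and NECTIN2, 2.33% against 1.6% of all genes), and fits without 1 library called 0 to 6. The 6 without OE_GPX3 replicate 1 were SPINT2, S100A4, TGFBR2, NECTIN1, NECTIN2 and KLF4, and without Vector replicate 1 they were NECTIN1 and KLF4.

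Same-numbered libraries of the groups deviated together with correlations of 0.19, 0.01 and 0.11 over tested genes, against -0.15 to 0.05 for unlike numbers. OE_GPX3 replicates 1 and 3 were closest to the Vector library of the same number, and OE_GPX3 replicate 2 to Vector replicate 3 (0.05). Whether the numbers pair the samples is undecided. The main fit does not pair them, and the replicate block, which does, is given as an alternative. Depth limits ZEB1, ZEB2 and SNAI2 most.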
